A study of Mus musculus with 56 samples.

Results

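Malat1, Neat1, Kcnq1ot1, Meg3, Lncpint and Dnm3os are 6 long non-coding RNAs, transcripts that are not read into protein and that work mainly in the nucleus. Their rows were taken by symbol from the raw count table, which lists 57010 genes, and all 6 were found. They were chosen by name, with earlier results of these data known. A ribosomal library is made from RNA recovered with a tagged ribosome, so the level of a nuclear RNA in it is a readout of RNA that came along without being translated.

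The libraries came from gastrocnemius, a calf muscle, of 28 mice aged 20 to 22 weeks. Every mouse carried ribosomal protein L10A tagged with GFP, switched on by Cre recombinase under the Mlc1f promoter, a promoter of muscle fibres. In the knockouts the same Cre also had a floxed Elavl1 to act on, the gene of the RNA-binding protein HuR, in the cells where the promoter is active. The controls are described only as controls, and their Elavl1 alleles are not given in the sources used here. The 56 libraries in 8 groups were read as a ribosomal and a total RNA library from each of 7 female controls, 7 female knockouts, 7 male controls and 7 male knockouts. That the same number is the same mouse in both RNA types is not stated outright in the labels. The labels number the mice within each group, and p-values measure the spread between these mice.

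Total counts in genes ran from 160313 to 3579221 (median 1624368) in the 28 ribosomal libraries and from 2427655 to 5848058 (median 3558302) in the 28 total libraries. In 7 ribosomal libraries they were under 750000: female controls 18 and 19, female knockouts 2, 6 and 12, male control 20 and male knockout 2. Reads that fell in no annotated gene made up more than 9% of the reads of 8 ribosomal libraries, 4 of them from female knockouts, and more than 19% of those of 5 total libraries (male controls 25, 26 and 27, female control 14 and female knockout 9). Muscle fibre markers were all detected, and their summed level in ribosomal RNA was 221% to 326% of that in total RNA across the 4 groups of mice, while that of fibroblast and matrix markers was 10.8% to 24.1%. Elavl1 passed the test in no comparison of knockouts with controls, with log2 differences of 0.27 and 0.29 in ribosomal RNA of females and males and of -0.01 and -0.14 in total RNA. The library kit reads transcripts near their 3′ ends, so these reads may lie outside the deleted part and check nothing about the labels. The mice are therefore called labelled knockouts.

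Malat1 is a very abundant RNA of nuclear speckles, the bodies where splicing factors gather, and Neat1 is the scaffold of paraspeckles, bodies that hold RNA-binding proteins such as SFPQ and NONO. Kcnq1ot1 and Meg3 are imprinted: Kcnq1ot1 is made from the paternal chromosome and silences neighbouring genes in cis, and Meg3 is made from the maternal chromosome of the Dlk1 domain. Lncpint is induced by p53 and works with repressive chromatin complexes, and Dnm3os is the host transcript of microRNAs of the miR-199a and miR-214 families, antisense to Dnm3. HuR binds AU-rich and U-rich stretches of RNA and is known for stabilising its targets.

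The sequences below are from GENCODE M21 transcripts of the GRCm38 assembly, numbered from 1 at the 5′ end of each transcript. The count table was built on GRCm39, so no genome coordinates are given. They are shown because such kits prime with oligo(dT), which can bind a run of A inside a transcript, and because Malat1 and Neat1 share an ending. Whether reads began at these runs was not tested. Capitals mark the last run of 10 or more A of Kcnq1ot1 and Meg3, the run and the shared ending that overlaps it in Malat1, and the shared ending in Neat1, which holds no such run.
Malat1-201, bases 6649 to 6716 of 6983, chromosome 19: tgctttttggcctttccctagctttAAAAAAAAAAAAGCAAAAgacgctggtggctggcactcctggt
Kcnq1ot1-201, bases 90020 to 90081 of 93092, chromosome 7: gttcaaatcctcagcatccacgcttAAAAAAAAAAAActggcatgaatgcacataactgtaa
Meg3-209, bases 9678 to 9740 of 14548, chromosome 12: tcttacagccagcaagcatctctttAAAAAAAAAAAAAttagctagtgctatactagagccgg
Neat1-201, bases 20712 to 20771 of 20771, chromosome 19: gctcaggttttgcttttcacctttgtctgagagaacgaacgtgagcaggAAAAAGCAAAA

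Malat1 and Neat1, which lie near each other on chromosome 19, share the 11 bases AAAAAGCAAAA at the point where an RNA triple helix protects their 3′ ends in place of an ordinary poly(A) tail. In Malat1-201 they stand at bases 6681 to 6691, and in Neat1-201 they are the last 11 bases. The same 11 bases were found in 70 of 21742 other annotated lncRNA transcripts of at least 500 bases (0.322%). A run of 10 or more A was found 10 times in Kcnq1ot1-201, 6 times in Meg3-209 and 1 time each in Malat1-201 and Dnm3os-201 (7928 bases, chromosome 1). Such a run stood in 7.07% of those transcripts and in 37.9% of the 253 of at least 5000 bases. The motif ATTTA, written as DNA and searched on the transcript strand only, occurred 12 times in Malat1-201 (1.72 per kilobase), 21 times in Neat1-201 (1.01), 166 times in Kcnq1ot1-201 (1.78), 9 times in Meg3-209 (0.619), 2 times in Lncpint-201 (1676 bases, chromosome 6) and 13 times in Dnm3os-201 (1.64). Among the transcripts of at least 5000 bases 97.6% held it, with a median of 1.22 per kilobase, so its presence is usual at these lengths. A match is a string of letters and not a site shown to be bound.

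Levels are CPM, counts scaled to a common library size over all 56 libraries with TMM factors. They are compared between groups and not between genes. Malat1 (ENSMUSG00000092341.5) gave 21887 counts in all ribosomal libraries and 303953 in all total libraries, Neat1 (ENSMUSG00000092274.5) 4153 and 50587, and Kcnq1ot1 (ENSMUSG00000101609.3) 339 and 16143. Meg3 (ENSMUSG00000021268.19) gave 184 and 9109, Lncpint (ENSMUSG00000044471.14) 91 and 1980, and Dnm3os (ENSMUSG00000078190.8) 21 and 1522. The ribosomal levels of the last 2 thus rest on few counts per library. Reads of the long and short forms of Neat1 were counted together. Kcnq1ot1 lies antisense within Kcnq1 and Dnm3os within Dnm3, and the strand setting of the counting is not given in the sources used here, so reads of each antisense pair may not be told apart.

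**Figure D1:**
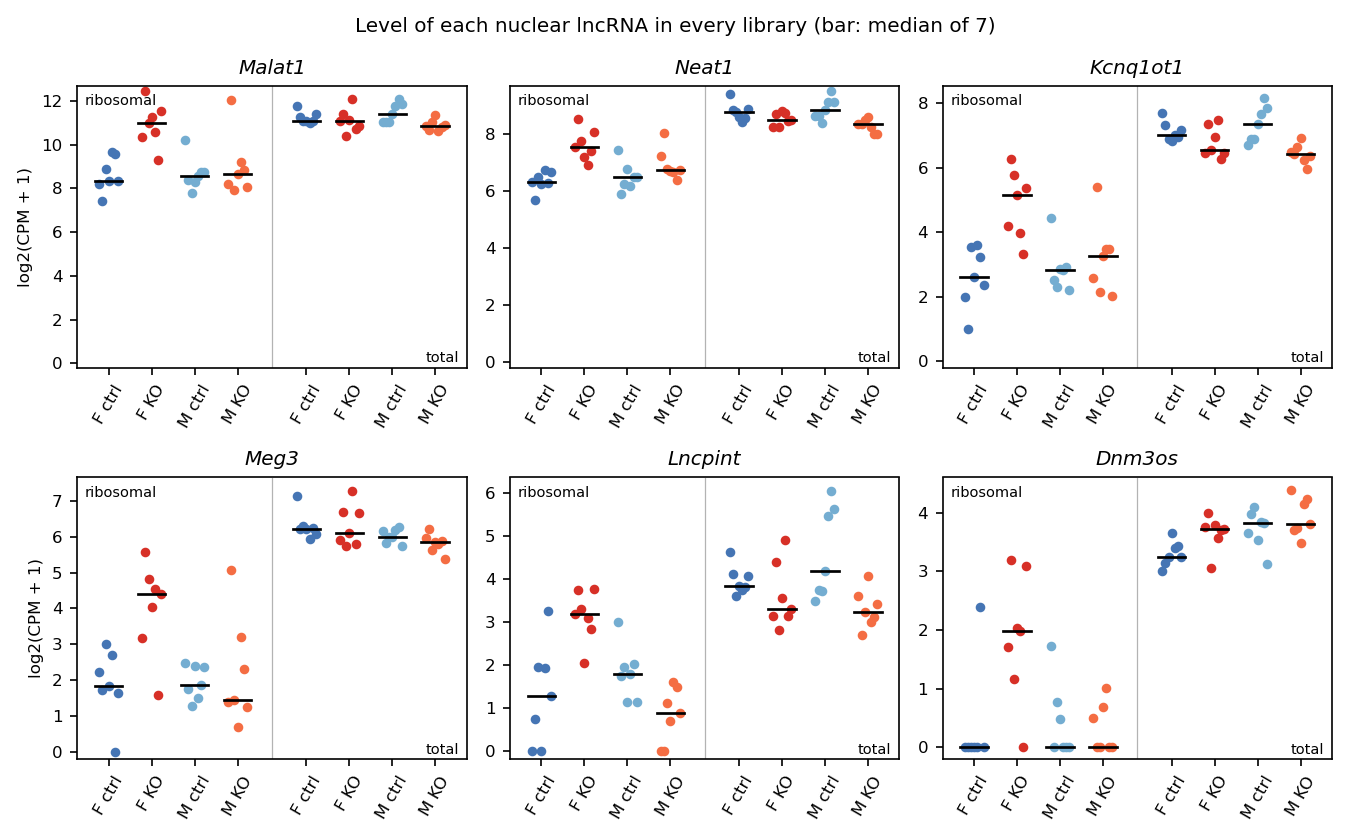
Level of each of the 6 RNAs in every library (log2 of CPM + 1), with 1 point per mouse in each of 8 groups and a bar at the group median. In ribosomal RNA the female labelled knockouts of Malat1 have a median of 2048 CPM against 325 in female controls, while in total RNA the medians are 2143 and 2200.

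In control muscle all 6 RNAs were far lower in ribosomal than in total RNA. In female controls Malat1 measured 174 CPM in the lowest, 325 in the median and 803 in the highest ribosomal library, against 2068, 2200 and 3456 in total RNA, and the groups did not overlap. The log2 difference between ribosomal and total RNA was -2.51 (SE 0.429, adjusted p = 8.042e-07, edgeR's quasi-likelihood test over 12546 genes). Kcnq1ot1 showed a wider gap: 0.980, 5.11 and 11.1 CPM in ribosomal against 113, 129 and 206 CPM in total RNA, a log2 difference of -4.91 (SE 0.378, adjusted p = 2.569e-17). All 6 RNAs passed the test downwards in female controls, where 38.1% of all genes tested did, and all 6 in male controls, where 38.6% did. The 6 log2 differences lay between -2.49 (Neat1) and -5.94 (Dnm3os) in females and between -2.43 (Neat1) and -5.18 (Dnm3os) in males. That of Dnm3os in females rests on 1 count in the 7 ribosomal libraries, and 15 of the 28 ribosomal libraries held none, for which a limit of 3 counts corresponds to 0.838 to 18.7 CPM.

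As a share of the mean total level of the same mice's group, Malat1 in ribosomal RNA averaged 18.3% ± 9.81 (SD, n = 7) in female controls and 15.9% ± 10.8 in male controls, and Neat1 18.3% ± 4.09 and 19.4% ± 7.64. The imprinted RNAs were lower on this scale: Kcnq1ot1 averaged 4.38% ± 2.76 and 4.25% ± 3.43, and Meg3 4.14% ± 2.94 and 4.72% ± 2.0. Control males and control females did not pass a test against each other for any of these RNAs. In ribosomal RNA 0 of the 4 tested passed, with edgeR, DESeq2 and limma alike and with 0 at an unadjusted p under 0.05, where 7.63% of all genes passed. In total RNA 0 of 6 passed with each tool, with 2 at an unadjusted p under 0.05, where 8.7% of all genes passed.

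In ribosomal RNA of females, Malat1, Neat1, Kcnq1ot1 and Meg3 were all higher in the labelled knockouts than in the controls, by log2 differences of 1.44 to 2.84. They were the 4 RNAs that passed the filter on low counts, and all 4 were called upwards, where 8.44% of the 9098 genes tested were. The filter asked for 6.16 CPM in at least 7 of the 28 libraries. Malat1 and Neat1 reached it in all 28. Kcnq1ot1 reached it in 15, which were 7 female knockouts, 4 male knockouts, 2 female controls and 2 male controls. Meg3 reached it in 8, of which 6 were female knockouts and 0 were controls, so it entered the test through the groups where it was high, and its call is no support. The count of 4 is therefore given as a description.

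Malat1 measured 174, 325 and 803 CPM in the lowest, median and highest female control and 622, 2048 and 5556 CPM in the labelled knockouts. In 6 of 7 knockouts it was above every control, and knockout 10 overlapped the controls. The log2 difference was 2.49 (SE 0.551, adjusted p = 0.001825, edgeR's quasi-likelihood test).

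Neat1 measured 50.3, 79.0 and 105 CPM in female controls and 118, 184 and 368 CPM in the labelled knockouts. All 7 knockouts lay above all 7 controls. The log2 difference was 1.44 (SE 0.245, adjusted p = 8.832e-05, edgeR), the smallest of the 4.

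Kcnq1ot1 measured 0.980, 5.11 and 11.1 CPM in female controls and 9.08, 34.3 and 75.6 CPM in the labelled knockouts. Knockout 10, with 9 counts, again fell within the range of the controls, and the other 6 were above it. The log2 difference was 2.84 (SE 0.495, adjusted p = 0.0001225, edgeR).

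Meg3 measured 0, 2.56 and 7.09 CPM in female controls and 2.02, 20.1 and 47.0 CPM in the labelled knockouts, with 6 of 7 above every control. For the 1 control library at 0 a limit of 3 counts corresponds to 7.10 CPM. The log2 difference was 2.55 (SE 0.523), given without a p for the reason above. In a fit with no filter beyond 1 count, which does not select on the knockouts' level, it was 2.44 (SE 0.379, adjusted p = 2.32e-08, edgeR). That fit gave smaller standard errors, 0.156 against 0.551 for Malat1 in the same comparison. Its p-values, here and below, are therefore smaller than those of the filtered fit and are given as a description. The counts behind it are 31 in all female control libraries and 82 in all knockout libraries.

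Lncpint and Dnm3os did not pass the filter, so the fits of ribosomal RNA do not test them. Lncpint gave 37 counts in female knockouts and 11 in controls, a depth-scaled ratio of 5.94 (95% counting interval 2.97 to 12.9), and 3 knockouts lay above every control. Dnm3os gave 13 and 1 counts, a ratio of 23 (3.45 to 976). These intervals cover counting error only and not the spread between mice. In the fit with no filter beyond 1 count Lncpint differed by 2.61 (SE 0.558, adjusted p = 0.00016) and Dnm3os by 3.94 (SE 0.913, adjusted p = 0.000702, edgeR), and the value of Dnm3os depends on the 1 count of the controls.

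The 4 calls held without each of the 14 libraries in turn, and without the 7 shallow libraries the log2 differences were 2.18, 1.21, 2.48 and 2.12 for Malat1, Neat1, Kcnq1ot1 and Meg3. Without female controls 18 and 19 they were 2.97, 1.49, 2.98 and 2.54. With the share of reads outside genes as a covariate they were 0.92 (adjusted p = 0.0196), 0.78 (adjusted p = 0.0159), 1.13 (adjusted p = 0.0959) and 0.88 (adjusted p = 0.351, edgeR). With the summed level of mitochondrially encoded mRNAs as a covariate 0 of the 4 passed, at 0.66, 0.84, 0.82 and 0.53.

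**Figure D2:**
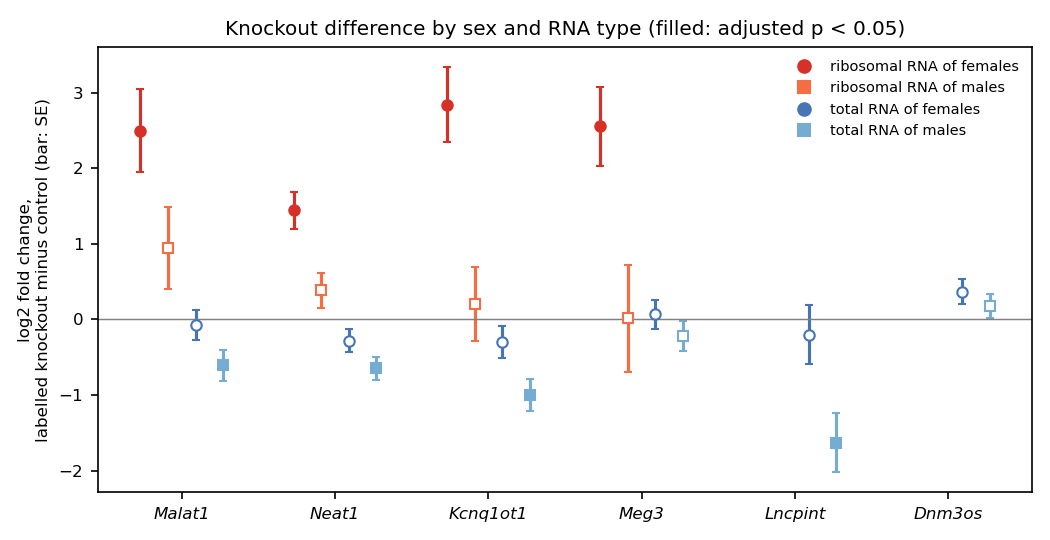
Log2 difference between labelled knockouts and controls for each RNA, in ribosomal and total RNA of females and males, with bars of 1 standard error. In female ribosomal RNA the 4 tested RNAs lie between 1.44 and 2.84, and in male total RNA Malat1, Neat1, Kcnq1ot1 and Lncpint lie between -0.61 and -1.63.

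In males the labelled knockouts and controls overlapped for every one of these RNAs. In their ribosomal RNA 0 of the 4 tested RNAs passed, with edgeR, DESeq2 and limma alike and with 0 at an unadjusted p under 0.05, where 8.96% of all genes passed. Malat1 measured 222, 374 and 1172 CPM in male controls and 245, 407 and 4247 CPM in knockouts, and only knockout 2 lay above every control. Its log2 difference was 0.95 (SE 0.539, adjusted p = 0.3012, edgeR), and without knockout 2 it was -0.29. That library is the shallowest of the series, with 160313 counts, and 12.2% of its reads lay outside genes. Neat1 differed by 0.39 (adjusted p = 0.3414), Kcnq1ot1 by 0.21 (adjusted p = 0.8504) and Meg3 by 0.01 (adjusted p = 0.9959, edgeR). Lncpint gave 12 counts in male knockouts and 31 in controls, a ratio of 0.415 (0.194 to 0.831), and 5 knockouts lay below every control. Dnm3os gave 3 and 4 counts, a ratio of 0.804 (0.118 to 4.75). With no filter beyond 1 count they differed by -1.28 (adjusted p = 0.238) and -0.25 (edgeR), and neither passed. The same fit called Malat1, at 0.87 (SE 0.152, adjusted p = 2.2e-06, edgeR), although its difference in the main fit rested on knockout 2.

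The difference between the sexes was tested itself, with Meg3 subject to the same limit of the filter. It passed for Kcnq1ot1, with a knockout effect that was 2.63 higher on the log2 scale in females than in males (SE 0.708, adjusted p = 0.03159, edgeR), where 3.43% of all genes passed. Malat1 (1.55, adjusted p = 0.2346), Neat1 (1.06, adjusted p = 0.07176) and Meg3 (2.54, adjusted p = 0.06715) did not pass. With no filter beyond 1 count the difference for Meg3 was 2.43 (adjusted p = 0.0033, edgeR), for Lncpint 3.89 (adjusted p = 0.000212) and for Dnm3os 4.19 (adjusted p = 0.0842). The result for Kcnq1ot1 depends on single libraries. The call for Kcnq1ot1 was lost without female controls 14, 15 or 17, female knockouts 2 or 5, or male knockout 14, with log2 values of 2.25 to 2.64 and adjusted p of 0.0502 to 0.0788. DESeq2 called 0 of the 4 and limma 3, and without male control 20 and male knockout 2 all 4 passed with edgeR.

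In total RNA the female knockouts and controls overlapped for every RNA. Malat1 measured 2068, 2200 and 3456 CPM in female controls and 1339, 2143 and 4438 CPM in labelled knockouts, and Kcnq1ot1 113, 129 and 206 CPM against 75.4, 91.8 and 179 CPM. 0 of 6 passed with edgeR, DESeq2 and limma, with 1 at an unadjusted p under 0.05 (Dnm3os, a log2 difference of 0.37), where 8.49% of all genes passed.

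In total RNA of males 4 of the 6 fell in the labelled knockouts, where 7.36% of all genes did. Kcnq1ot1 measured 104, 161 and 288 CPM in male controls and 61.8, 84.5 and 121 CPM in knockouts, and 6 of 7 knockouts lay below every control. The log2 difference was -1.0 (adjusted p = 0.003342, edgeR). Lncpint measured 10.2, 17.2 and 65.2 CPM in controls and 5.40, 8.34 and 15.8 CPM in knockouts, with 5 knockouts below every control, and differed by -1.63 (adjusted p = 0.006693). Neat1 measured 335, 452 and 716 CPM against 251, 320 and 384 CPM, with 5 knockouts below every control, and differed by -0.64 (adjusted p = 0.006022). Malat1 measured 2087, 2747 and 4356 CPM against 1598, 1836 and 2674 CPM, also with 5 below, and differed by -0.61 (SE 0.202, adjusted p = 0.04194). Meg3 (-0.21, adjusted p = 0.4897) and Dnm3os (0.18, adjusted p = 0.468) did not pass. DESeq2 called 3 of the 6, with Malat1 at an adjusted p of 0.0564, and limma called 2, Neat1 and Kcnq1ot1. The knockout effects of the sexes were not shown to differ in total RNA: 0 of the 6 passed with edgeR, DESeq2 or limma, with 2 at an unadjusted p under 0.05, and of 12860 genes edgeR called 0, with 1225 at an unadjusted p under 0.05, DESeq2 8 and limma 0.

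The male result moved with the reads outside genes. Male controls 25, 26 and 27 are among the 5 total libraries with over 19% of such reads, and reads outside genes ran from 12.4% to 23.4% in male control and from 9.78% to 13.9% in male knockout total libraries. Without those 5 libraries 0 of the 6 RNAs passed, at log2 differences of -0.23 for Malat1, -0.35 for Neat1, -0.53 for Kcnq1ot1 and -0.51 for Lncpint. With the share of reads outside genes as a covariate 0 passed and Malat1 stood at 0.07. The call for Malat1 was also lost without any 1 of 10 libraries: male controls 23, 25, 26 and 27 and male knockouts 1, 2, 6, 12, 13 and 14, with log2 values between -0.48 and -0.62. The calls for Neat1, Kcnq1ot1 and Lncpint held without each of the 14 libraries in turn.

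**Figure D3:**
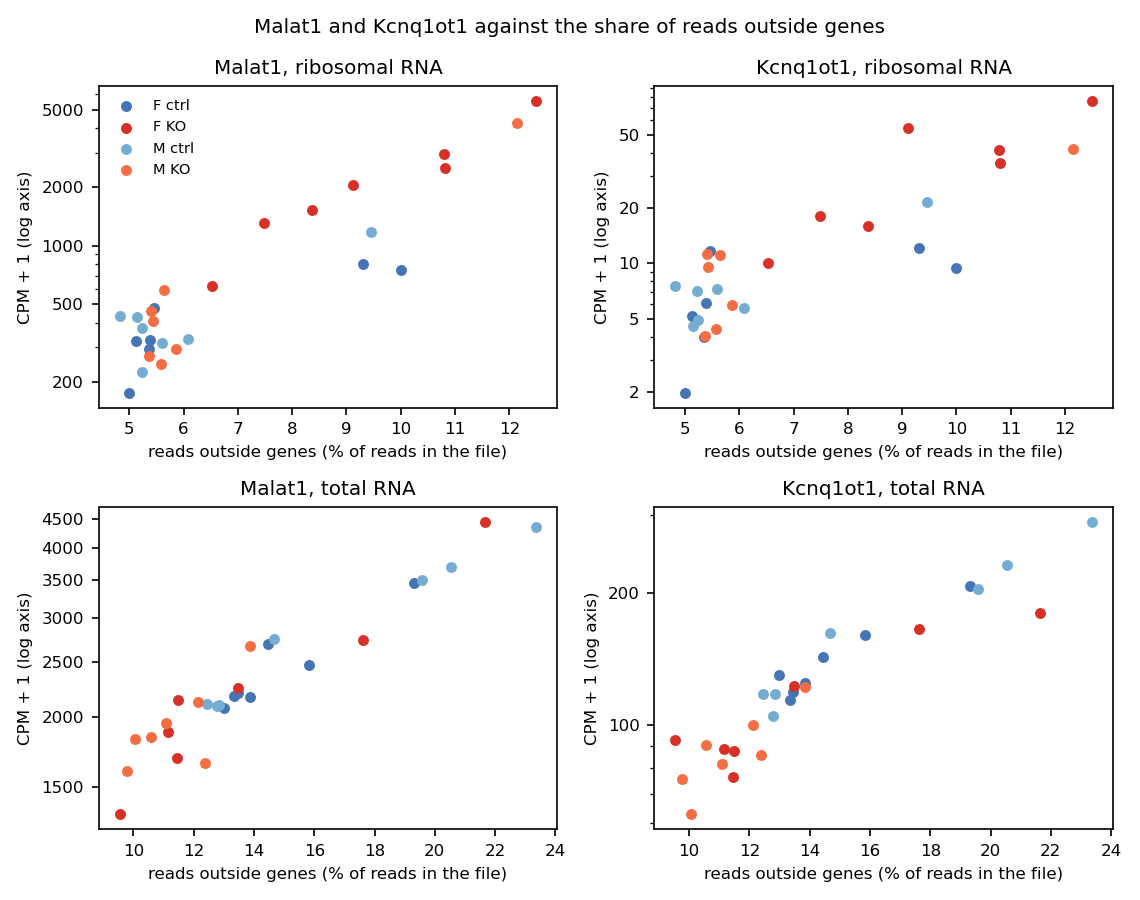
Level of Malat1 and of Kcnq1ot1 (CPM + 1, log axis) against the share of reads that lie outside annotated genes (percent of reads in the file), for 28 ribosomal and 28 total libraries, coloured by sex and genotype. In female knockout ribosomal RNA (red) Malat1 rises with that share from 622 CPM in knockout 10 to 5556 CPM in knockout 2, and male knockout 2 (4247 CPM) lies beside them.

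Malat1 was related to the share of reads outside genes in female groups and, with a limit given below, in total RNA of male controls. In male ribosomal groups the relation rested on single libraries. Over the 7 ribosomal libraries of female labelled knockouts Pearson's r was 0.974 (exact permutation p = 0.000397, adjusted p = 0.00952 over the 48 relations computed, two-sided) and Spearman's rho was 0.964 (exact p = 0.00278, adjusted p = 0.0444). Without the 2 libraries farthest from the median share r was 0.974. In their 7 total libraries r was 0.962 (exact permutation p = 0.000595, adjusted p = 0.00952) and rho 0.964, with r at 0.890 without the 2 farthest. In female control ribosomal RNA r was 0.876 (exact permutation p = 0.00258, adjusted p = 0.0177), or 0.823 without the 2 farthest, and rho 0.929 (adjusted p = 0.0648), and in their total RNA r was 0.941 (exact permutation p = 0.00933, adjusted p = 0.0298), or 0.895, and rho 0.857 (adjusted p = 0.104). In male control ribosomal RNA r was 0.801 (exact permutation p = 0.108, adjusted p = 0.148), rho was -0.11, and r was -0.49 without the 2 farthest. In male knockout ribosomal RNA r was 0.941 (exact permutation p = 0.0762, adjusted p = 0.124), rho was 0.464, and r was 0.285 without the 2 farthest. In male knockout total RNA r was 0.738 (exact permutation p = 0.051, adjusted p = 0.0978) and 0.038 without them. In male control total RNA r was 0.992 (exact permutation p = 0.000794, adjusted p = 0.00952), or 0.979 without the 2 farthest, and rho 0.893 (adjusted p = 0.0844). Those libraries fall into separate clusters of the share, so r there does not tell a relation from a difference between the clusters. In female knockout ribosomal RNA r for Kcnq1ot1 was 0.890 (exact permutation p = 0.0103, adjusted p = 0.031) and fell to 0.682 without the 2 farthest, and rho did not pass adjustment (0.821, adjusted p = 0.121). For Meg3 r was 0.839 (exact permutation p = 0.0143, adjusted p = 0.0361), fell to 0.438 without them, and had a rho of 0.679 (adjusted p = 0.219), so that relation rests on those libraries. For Neat1 r was 0.575 (exact permutation p = 0.177, adjusted p = 0.212). No value is given over all libraries, since the groups form separate clusters.

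In female labelled knockouts the ribosomal level of these RNAs was a larger share of the total level than in female controls. Malat1 averaged 100% ± 68.3 (SD, n = 7) of its total level, from 26.5% in knockout 10 to 236% in knockout 2, and its log2 difference from total RNA was -0.01 (SE 0.399, adjusted p = 0.9891, edgeR). Neat1 averaged 56.4% ± 23, Kcnq1ot1 30.4% ± 20.7 and Meg3 24.1% ± 17.2. Lncpint averaged 64.9% ± 26 and differed by -0.67 from total RNA (adjusted p = 0.2293). The other 4 of the 6 RNAs were still lower in ribosomal RNA, where 38.2% of all genes were, and Malat1 was also called lower, at -0.81 (adjusted p = 0.00695), without the 7 shallow libraries. In male knockouts all 6 were lower in ribosomal RNA, where 37.1% of all genes were, with Malat1 at -1.26 (adjusted p = 0.006652) and -2.41 without male knockout 2.

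**Figure D4:**
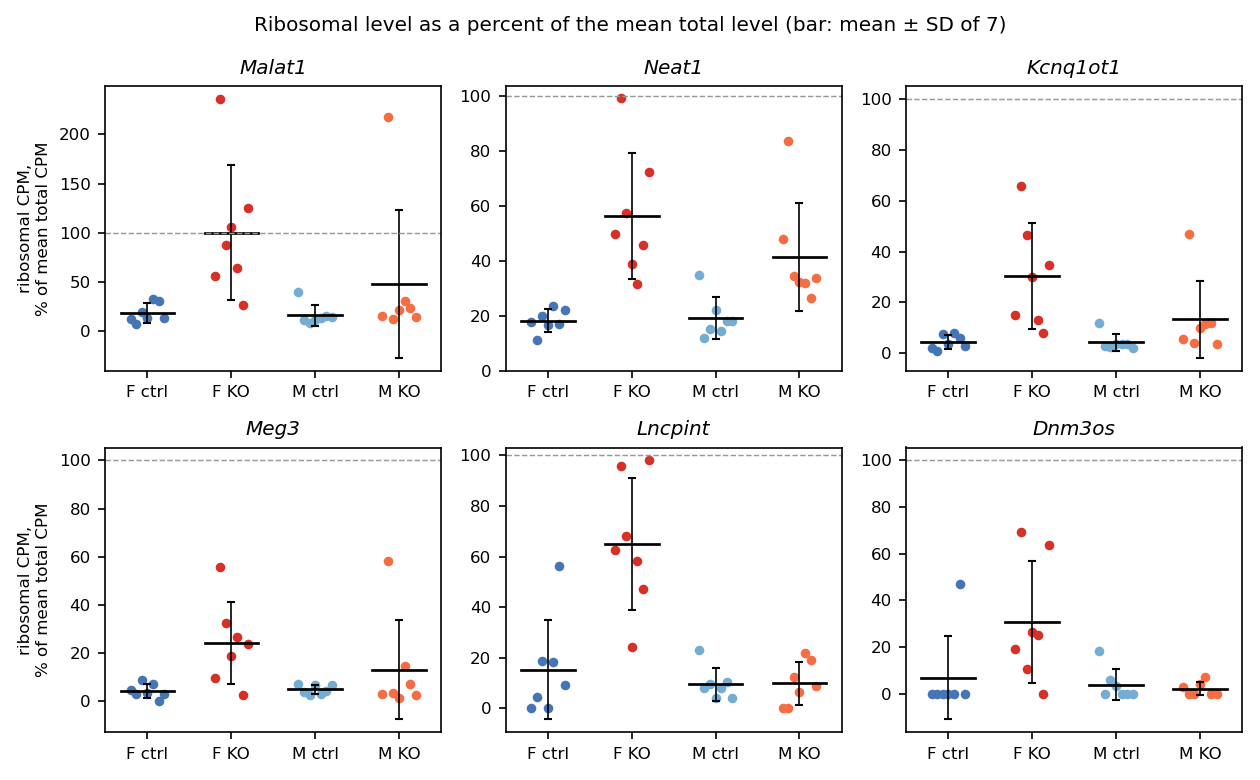
Level of each RNA in ribosomal RNA as a percent of its mean level in total RNA of the same sex and genotype, with 1 point per ribosomal library, and the mean and SD of 7 libraries. Female labelled knockouts average 100% for Malat1 and 30.4% for Kcnq1ot1, against 18.3% and 4.38% in female controls.

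In females the knockout effect was larger in ribosomal than in total RNA for all 6 RNAs, where 1.85% of all genes tested passed in that direction. The log2 difference of the 2 effects was 2.51 for Malat1 (SE 0.579, adjusted p = 0.009466), 1.64 for Neat1 (SE 0.281, adjusted p = 0.0003385), 3.08 for Kcnq1ot1 (SE 0.531, adjusted p = 0.0003385) and 2.39 for Meg3 (SE 0.545, adjusted p = 0.008124, edgeR). It was 2.93 for Lncpint (SE 0.884, adjusted p = 0.04734) and 3.93 for Dnm3os (SE 0.969, adjusted p = 0.01488), and the latter rests on 1 and 13 ribosomal counts. DESeq2 called 6 of the 6 and limma 5, with Meg3 at 1.87 (adjusted p = 0.059). Lncpint did not pass without any 1 of 18 of the 28 libraries, at 2.67 to 3.32 over all 28. Dnm3os did not pass without female control 15 (3.5) or female knockout 2 (3.55) in ribosomal RNA. Without the 7 shallow libraries Meg3 was at 1.96 (adjusted p = 0.0652) and Lncpint at 3.16 (adjusted p = 0.0915). In males 0 of 6 passed with edgeR, DESeq2 or limma, with 3 at an unadjusted p under 0.05, where 0.128% of all genes passed in either direction. The largest were Malat1 (1.43, adjusted p = 0.4232), Kcnq1ot1 (1.17, adjusted p = 0.5101) and Neat1 (1.0, adjusted p = 0.1332). Without the 7 shallow libraries Neat1 passed in males, at 1.02 (adjusted p = 0.0288).

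Other RNAs that the cytosolic ribosomes of muscle fibres are not known to translate moved with them in female ribosomal RNA. All 7 tested mRNAs encoded by the mitochondrial genome, which are translated by mitochondrial ribosomes, rose, with a median log2 difference of 2.02, against -0.02 over all genes. Their summed level was 1630, 2836 and 7162 CPM in female controls and 5989, 13810 and 27550 CPM in labelled knockouts, and mt-Nd5 rose by 2.50 (adjusted p = 0.0008371, edgeR). Of the 13 genes of the list, mt-Nd3, mt-Nd4l, mt-Atp6 and mt-Atp8 were at 0 in both female ribosomal groups, and mt-Co2 and mt-Co3 in the knockouts. In males 0 of the 7 passed (edgeR, with 1 at an unadjusted p under 0.05), with a median of 0.50 and a summed level of 1569, 2206 and 9366 CPM in controls and 1391, 1746 and 18950 CPM in knockouts.

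Markers of several other cell types of the muscle rose as well, and those of adipocytes and satellite cells were not called. In female ribosomal RNA 9 of 10 tested fibroblast and matrix genes rose, among them Fn1 (2.33, adjusted p = 3.554e-08) and Col1a2 (1.98, adjusted p = 1.559e-06), and so did 6 of 6 endothelial, 4 of 5 macrophage and leukocyte, 3 of 4 smooth muscle, 2 of 3 Schwann cell and 5 of 5 erythroid markers, where 8.44% of all genes rose. 0 of 5 adipocyte and 0 of 2 satellite cell markers passed (edgeR, with 0 of either at an unadjusted p under 0.05), with medians of 0.25 and -0.12. Of the fibre markers 5 of 15 rose, with a median of 0.29. The summed fibroblast and matrix level was 252 to 414 CPM in female controls and 476 to 1401 CPM in labelled knockouts, with none of its 12 genes at 0. The summed endothelial level was 83.7 to 165 CPM and 107 to 409 CPM, and the erythroid 155 to 308 CPM and 334 to 1246 CPM. In male ribosomal RNA 0 of 10 fibroblast genes passed (edgeR, with 1 at an unadjusted p under 0.05), with a summed level of 243 to 391 CPM in controls and 266 to 792 CPM in knockouts, and 5 of 5 erythroid genes rose. In total RNA fibroblast and matrix genes rose in both sexes (8 of 12 in females and 10 of 12 in males), where 1092 and 1824 of all 12860 genes tested passed in either direction. The mean summed erythroid level there was 757.5 CPM in female controls and 1352 CPM in female knockouts, and 729.5 and 1560 CPM in males. In females the macrophage and leukocyte means were 162.1 and 243.3 CPM, endothelial 560.5 and 477.1, smooth muscle 698.1 and 680.5, and Schwann cell 268.6 and 294.1. Malat1 in total RNA was not called in females. In males it was lower, a call that several alternatives lost. The part of these markers in the results for the 6 RNAs was not tested. In such bulk samples, fewer cells of a type and less RNA per cell cannot be told apart.

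**Figure D5:**
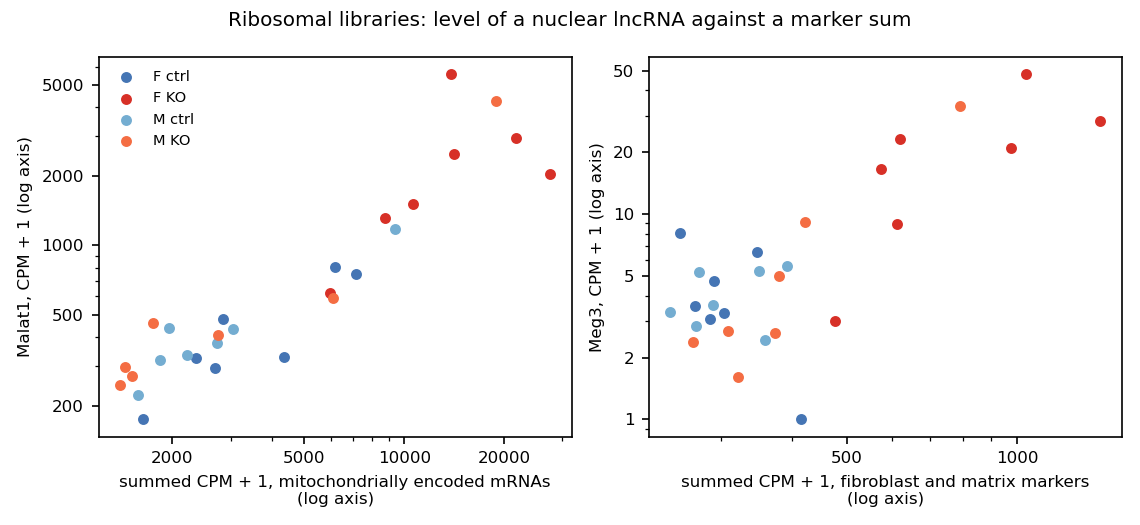
Malat1 against the summed level of mitochondrially encoded mRNAs, and Meg3 against that of fibroblast and matrix markers, in the 28 ribosomal libraries (CPM + 1, log axes, coloured by sex and genotype). Female labelled knockouts lie at 5989 CPM and above on the mitochondrial axis and at 476 CPM and above on the fibroblast axis, where female controls reach 7162 and 414 CPM.

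Among other nuclear lncRNAs on a list of 15, 6 could be tested in ribosomal RNA. In females Xist, which coats the inactive X chromosome, rose by 2.81 (adjusted p = 0.0002131, edgeR), and Peg13, an imprinted RNA, differed by -0.58 (adjusted p = 0.02569), with the other 4 not called and a list median of 0.05. Peg13 also fell in males (-0.51, adjusted p = 0.04487). In control females Xist differed by -5.63 between ribosomal and total RNA, while Peg13 was higher in ribosomal RNA, by 0.62. Of 15 tested host and other lncRNAs, 2 rose and 5 fell in females, where 1533 of the 9098 genes tested passed in either direction. H19, an imprinted RNA, rose by 1.88 (adjusted p = 1.834e-08), whereas Snhg15 (-2.17, adjusted p = 0.0002675) and Gas5 (-0.57, adjusted p = 0.001869), hosts of small nucleolar RNAs, fell. Snhg15 differed by 1.52 and Gas5 by 0.10 between ribosomal and total RNA of control females. The lncRNAs named here thus moved in both directions.

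The mRNAs of proteins that share nuclear bodies with Malat1 and Neat1 were counted in the same fits. In female ribosomal RNA 0 of 13 mRNAs of paraspeckle proteins passed (edgeR, with 4 at an unadjusted p under 0.05), with Sfpq at 0.31 (adjusted p = 0.153), and of 16 mRNAs of nuclear speckle proteins 1 fell, the kinase gene Clk4 (-0.46, adjusted p = 0.01132), with list medians of 0.17 and 0.02 against -0.02 over all genes. In total RNA of males, where Malat1 and Neat1 fell, 2 of 13 paraspeckle genes fell, Rbm14 (-0.51, adjusted p = 0.0107) and Sfpq (-0.30, adjusted p = 0.03606), and 6 of 16 nuclear speckle genes did, among them Clk1 (-0.49, adjusted p = 0.001222), Srsf11 (-0.36, adjusted p = 0.01095) and Srrm2 (-0.36, adjusted p = 0.01518), where 7.36% of all genes fell. The list medians were -0.07 and -0.26, against 0.002 over all genes. In total RNA of females 4 of the 16 fell and 1 rose, Srsf3 (0.33, adjusted p = 0.001636), where 8.49% of all genes passed in either direction.

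Of the 5 tested genes of the Kcnq1ot1 domain 0 passed in female ribosomal RNA (edgeR, with 2 at an unadjusted p under 0.05), where Kcnq1ot1 rose, and 0 in total RNA of males (with 0 at an unadjusted p under 0.05), where it fell in the main fit. Cdkn1c, a growth inhibitor that Kcnq1ot1 is known to silence on the paternal chromosome, differed by -0.78 in male ribosomal RNA (adjusted p = 0.005264), where Kcnq1ot1 was not called. In the Meg3 domain Dlk1, Rian and Mirg were tested in total RNA, and 0 of the 3 passed in either sex (edgeR, with 1 at an unadjusted p under 0.05 in females and 2 in males). Beside Malat1 and Neat1, Ltbp3 (1.29, adjusted p = 4.45e-05) and Ehbp1l1 (0.43, adjusted p = 0.02072) rose in female ribosomal RNA, and 0 of 6 neighbours passed in total RNA of either sex (edgeR, with 1 at an unadjusted p under 0.05 in females and 3 in males). Dnm3, which Dnm3os overlaps in antisense, fell in total RNA of females (-0.87, adjusted p = 0.007753) and of males (-0.89, adjusted p = 0.009361), whereas Dnm3os was called in neither. Over all genes, 1533 of 9098 passed in either direction in female ribosomal RNA. In total RNA 1092 of 12860 did in females and 1824 in males. At such shares a count of 0 among so few genes does not set a list apart.

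The genes whose log2 level over the 28 ribosomal libraries was most like that of Malat1 were mt-Cytb (r = 0.930), mt-Nd5, mt-Nd2, mt-Nd4 and mt-Nd1, among 8520 genes compared with a median r of -0.22. For Kcnq1ot1 they were Col3a1 (r = 0.903), mt-Nd5, mt-Co1, mt-Cytb and mt-Nd2. For Neat1 they were Sptbn1 (r = 0.904), Col5a3, Hspg2, Fbn1 and Mmp14, and for Meg3 Utrn (r = 0.903), Fbn1, Col6a1, Hspg2 and Ncam1. Over the 28 total libraries the nearest genes were others: Nktr for Malat1 (r = 0.952), Huwe1 for Neat1 (r = 0.907), Luc7l2 for Kcnq1ot1 (r = 0.950), Ralgapa2 for Meg3 (r = 0.725), Trpm7 for Lncpint (r = 0.954) and Arhgdib for Dnm3os (r = 0.816). Luc7l2 is among the 5 nearest genes of 4 of the 6 RNAs in total RNA (Malat1, Neat1, Kcnq1ot1 and Lncpint). These are descriptions over libraries that share groups and depth, with no test. Within the 7 ribosomal libraries of female knockouts, r of Malat1 with the summed mitochondrially encoded mRNAs was 0.659 (exact permutation p = 0.103, adjusted p = 0.145). It was 0.888 in female controls, 0.951 in male controls and 0.945 in male knockouts (adjusted p = 0.0256, 0.0242 and 0.0175). Without the 2 libraries farthest from the median these were 0.637, 0.458 and 0.701. Neat1 (0.394), Kcnq1ot1 (0.808) and Meg3 (0.733) did not pass adjustment in female knockouts.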

How the data were processed

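Lexogen QuantSeq 3′ libraries (50 bp forward reads, 500 ng RNA each) were made from total RNA and from RNA bound to tagged ribosomes, per the labels' protocols. The authors deposited raw counts per gene. UMI-tools, STAR, HTSeq, DESeq2 1.40.1, R 4.3.0 and GRCm39 are named per the submitters' processing notes, without their roles. The annotation and strand setting are not given in the sources used here. The table holds 57010 genes and 5 summary lines, which were kept out of all fits and used for reads outside genes. All columns were matched to labels (0 unused), and symbols were found for 52029 identifiers with 97.56% of counts. No 2 libraries were identical (highest r 0.9878).

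Here, edgeR 4.0.16 (R 4.3.3) was run on these counts with filterByExpr, TMM and its quasi-likelihood test. Ribosomal and total libraries were fitted apart with 4 group means (9098 and 12860 genes), and contrasts between RNA types in 1 fit of all 56 (12546 genes). The threshold was an adjusted p of 0.05 (Benjamini-Hochberg, over all genes tested). The script was run on simulated data for the knockout comparisons within each sex and RNA type, and for ribosomal against total RNA in female controls. Differences between knockout effects were not simulated. Alternatives used DESeq2 1.42.0, limma 3.58.1 and the settings of the closing section. The covariate for reads outside genes, and leaving out 4 ribosomal libraries together, were chosen after seeing the data. All 6 RNAs are named in every comparison, with up to 4 genes of lowest p per list and the 5 genes of highest correlation (log2 CPM, prior count 2, mean CPM of at least 5). The RNAs and lists were chosen with earlier results of these data known. The values between RNA types of Xist, Peg13, Snhg15 and Gas5, and the remark on Luc7l2, were singled out after they were seen.

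Ribosomal and total libraries carry the same mouse numbers. The mean correlation of same-numbered deviations was 0.065, 0.157, -0.145 and 0.053 in female controls, female knockouts, male controls and male knockouts, and not every pair was over 0.1. For other numbers of the group it was -0.012, -0.026, 0.025 and -0.008. Of the 7 ribosomal libraries of each group, 2, 5, 1 and 2 were most like the total library of their own number. This check therefore did not show that the same number is the same mouse. The closing section gives the blocked fit.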

Additional observations from a re-analysis of the deposited data

Results flagged for a closer look

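Single libraries stood apart from the other 6 of their group by a gap test, and 48 groups of 7 libraries were examined. Its rate of about 1 in 20 groups holds for normally distributed values, and CPM resting on few counts are not such values. For Dnm3os in female controls the other 6 ribosomal libraries held 0 counts, so that flag was fixed in advance. In male knockout 2 ribosomal RNA, Malat1 stood at 4247 CPM, Neat1 at 261 CPM, Kcnq1ot1 at 40.8 CPM (5 counts) and Meg3 at 32.7 CPM (4 counts), each the highest of its group. This is the library with 160313 counts. In male control 20 ribosomal RNA, Malat1 stood at 1172 CPM, Kcnq1ot1 at 20.7 CPM, Lncpint at 6.89 CPM (3 counts) and Dnm3os at 2.30 CPM (1 count). In female control 19 ribosomal RNA, Lncpint stood at 8.44 CPM (2 counts) and Dnm3os at 4.22 CPM (1 count). In female control 14 total RNA, Neat1 stood at 674 CPM, Meg3 at 138 CPM and Lncpint at 23.4 CPM.

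Effects that differed between groups by a test of the difference were the sex difference of Kcnq1ot1 in ribosomal RNA (log2 difference of effects 2.63) and, in females, the difference between the knockout effects in ribosomal and total RNA. That difference was 2.51 for Malat1, 1.64 for Neat1, 3.08 for Kcnq1ot1, 2.39 for Meg3, 2.93 for Lncpint and 3.93 for Dnm3os.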

How the results depend on the processing

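The main limits are shallow ribosomal libraries, few counts for 4 of the 6 RNAs, and reads outside genes, which differ between groups. Where a direction or a number called changed, the cause was not tested. Leaving out 1 library at a time gave 1298 values that kept their side of the threshold, 36 weaker, 10 stronger and 28 of opposite sign. The other alternatives gave 614, 24, 18 and 23. With the mouse as a replicate block in the comparison of RNA types, 42 of 42 results were unchanged. These are the calls of the 6 RNAs and, within a set margin, the number of RNAs called in each comparison. In females 6 RNAs passed under the block, with Malat1 at 2.46 (adjusted p = 0.00457), and the genes called went from 434 to 261. With library totals in place of TMM the median of all genes in female ribosomal RNA moved to -0.24, and between ribosomal and total RNA of female knockouts to -0.93, from -0.25. There Malat1 (-0.76) and Lncpint (-1.36) were then called.

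The number of the 6 RNAs called changed as follows. In female ribosomal RNA it was 6 with no low-count filter (6 tested), 2 with the libraries of the contrast alone (2 tested), 0 with the mitochondrial covariate and 2 with the covariate for reads outside genes, against 4. In male ribosomal RNA it was 1 with no low-count filter, against 0. For the sex difference in ribosomal RNA, against 1, it was 5 with no filter, 0 with DESeq2, 3 with limma, 0 with either covariate, 4 without male control 20 and male knockout 2, and 3 without female controls 18 and 19. In male total RNA, against 4, it was 3 with DESeq2, 2 with limma and 0 without the 5 total libraries or with the covariate for reads outside genes. For the female difference between RNA types, against 6, it was 5 with limma or library totals and 4 without the 7 shallow libraries. For the male difference between RNA types, against 0, it was 2 with no filter and 1 without the 7 shallow libraries. Omitting 1 library gave 0 to 4 for the sex difference and 0 to 1 for the sexes' controls in total RNA (1 being Dnm3os without male control 27).

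Directions also changed, for 1 called result (Malat1 in male total RNA) and otherwise for differences that were not called. Meg3 in male ribosomal RNA (0.01) was -0.29 with limma, -0.16 without the shallow libraries, -0.16 without male control 20 and male knockout 2, and -0.072 with the covariate for reads outside genes. Malat1 between the sexes' ribosomal controls (0.05) was -0.34 without male control 20 and male knockout 2, and Meg3 (-0.24) was 0.003 with the mitochondrial covariate. In female total RNA Malat1 (-0.07) was 0.15 without knockouts 5, 6 and 12 and 0.026 with the covariate for reads outside genes, Meg3 (0.07) was -0.031 with limma, and Lncpint (-0.20) was 0.10 without those knockouts. The covariate for reads outside genes gave Malat1 0.066 and Meg3 0.18 in male total RNA (from -0.61 and -0.21), and -0.040 for both in the sex difference in total RNA (from 0.53 and 0.28). Without the 5 total libraries the sexes' controls gave Malat1 -0.028, Neat1 -0.058, Kcnq1ot1 -0.072 and Lncpint -0.072 (from 0.25, 0.11, 0.28 and 0.92). Malat1 between RNA types in female knockouts (-0.01) was 0.028 with those libraries alone. In the male difference between RNA types Meg3 (0.16) was -0.043 with limma and -0.015 without the shallow libraries, Lncpint (0.32) was -0.24 with limma, and Dnm3os (-0.52) was 0.000 with limma.

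Leaving out 1 library gave these ranges: Malat1 -0.29 to 1.32 and Meg3 -0.29 to 0.25 in male ribosomal RNA, Malat1 -0.35 to 0.27, Kcnq1ot1 -0.085 to 0.69 and Meg3 -0.41 to 0.093 between the sexes' ribosomal controls, Malat1 -0.31 to 0.032 and Meg3 -0.16 to 0.25 in female total RNA, Neat1 -0.011 to 0.24 between the sexes' total controls, Malat1 -0.41 to 0.22 between RNA types in female knockouts, and Meg3 -0.15 to 0.40 and Dnm3os -0.93 to 0.036 in the male difference between RNA types.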

Other observations

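Male knockout 2 and female knockout 2 were the libraries where ribosomal RNA held more Malat1 than the mean of the total libraries of their group by the widest margin. In male knockout 2 the level was 218% of the mean total level (520 counts) and in female knockout 2 it was 236% (2720 counts). Against the total library of the same number the 2 values were 257% and 203%. Neat1 in the same 2 ribosomal libraries stood at 83.6% and 99.3% of its mean total level, Kcnq1ot1 at 46.8% and 65.6%, and Meg3 at 58.4% and 55.6%. Dnm3os and Lncpint had no count in male knockout 2 and 4 and 6 counts in female knockout 2.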
